A study of Mus musculus with 9 samples.

Results

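Cell cycle and proliferation genes were followed in mouse lung RNA-seq libraries from a chronic asthma model treated with a herbal formula. The set holds 49 named genes, taken where the gene symbol stood in the deposited count table with at least 10 counts in at least 3 of the 9 libraries. All 49 met this limit, out of 21983 gene symbols in the table, and all 49 were among the 14739 genes tested. By the phase in which each gene is known to act or peak, 18 were placed in S phase, when DNA is copied, and 31 in G2/M, the phases of mitotic entry and division. Symbols were the names used to find the genes, and GENCODE vM21 annotates each as a protein-coding gene on GRCm38 (mm10).

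The 3 groups had 3 lung libraries each, all from the inbred strain BALB/c. The BSYQF group held asthmatic mice given the Bu-Shen-Yi-Qi formula by mouth at 20 g raw herbs per kg body weight from day 14, with 6 weeks of treatment named in the labels. Asthma mice received saline by mouth from the same day, and so did the control group, which the labels call normal mice. The sources used here do not name the agents that made the asthma model or the ages of the mice. The labels number the libraries as replicates without saying that each came from its own mouse, so the p-values are set against a spread between libraries that could be technical.

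Cells commit to division when cyclin E and its kinase partner free E2F transcription factors from the retinoblastoma family, and E2F then switches on the genes for DNA copying. Later a second wave of genes, under the MuvB complex, B-Myb and FoxM1, provides the kinases, cyclins, kinetochore proteins and motors of mitosis. In a healthy adult lung few cells divide, and division is seen in inflamed lung in immune cells, macrophages and the structural cells of the airway. In whole lung RNA, a larger number of dividing cells and more of this RNA per cell cannot be told apart.

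Libraries held 16286385 to 22819199 counts. Levels are given in CPM, counts scaled to a common library size, on which 3 counts equal 0.134 to 0.202. The lowest count of a cell cycle gene in any library was 8, for Pbk in control replicate 2. The 10 most abundant genes took 17.1% of counts in asthma replicate 2 and 7.53% to 13.7% in the other libraries. Of the lung epithelial markers, the surfactant gene Sftpc of alveolar type II cells stood at 25346, 18055 and 13769 CPM in BSYQF lungs, 13505, 16770.2 and 19256 CPM in asthma lungs, and 18702, 15779 and 18881 CPM in control lungs, abundant in every library.

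The cell cycle genes were higher in asthma lungs than in control lungs as a group. In edgeR's quasi-likelihood test, 40 of the 49 were higher at a Benjamini-Hochberg adjusted p under 0.05 and 0 were lower, against 8.23% higher and 4.45% lower among all tested genes. The 40 were all 18 S phase genes and 22 of the 31 G2/M genes. All 49 log2 fold changes of asthma over control were above 0, against 51.2% of all tested genes, with a median of 1.64 for S phase genes, 1.82 for G2/M genes and 0.02 for all tested genes. In 44 genes every asthma library lay above every control library, which was so in 22.0% of all tested genes. The number of the 49 called fell to 7, 12, 20, 7 and 13 without asthma replicate 1, asthma replicate 2, control replicate 1, control replicate 2 and control replicate 3, each left out in turn, while all 49 signs stayed positive in every one of these fits. Calls over all tested genes fell from 1869 to 171, 248, 438, 182 and 357 in the same fits. Without asthma replicate 3, 44 of the 49 and 4262 of all tested genes were called.

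In BSYQF lungs the phase classes parted. All 18 S phase genes had a negative log2 fold change of BSYQF over asthma, with a median of -0.50, whereas the G2/M genes split into 13 negative and 18 positive values, with a median of 0.07. The number of negative G2/M values was 23 without BSYQF replicate 1 and 7 without BSYQF replicate 2, and that of S phase genes 18 and 17. Among all tested genes 50.7% had a negative value. Single genes did not pass the test: edgeR called 0 of the 49, against 0.00678% of all tested genes, and 3 of the 49, Ccne2, E2f1 and Gins2, all lower in BSYQF, had an unadjusted p under 0.05, against 4.15% of all tested genes lower at that limit. DESeq2 called 1, Ccne2. In BSYQF over control, 17 of the 49 were higher and 0 lower, against 1.63% and 0.0407% of all tested genes. The heat map of all 49 genes shows the pattern library by library.

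**Figure D1:**
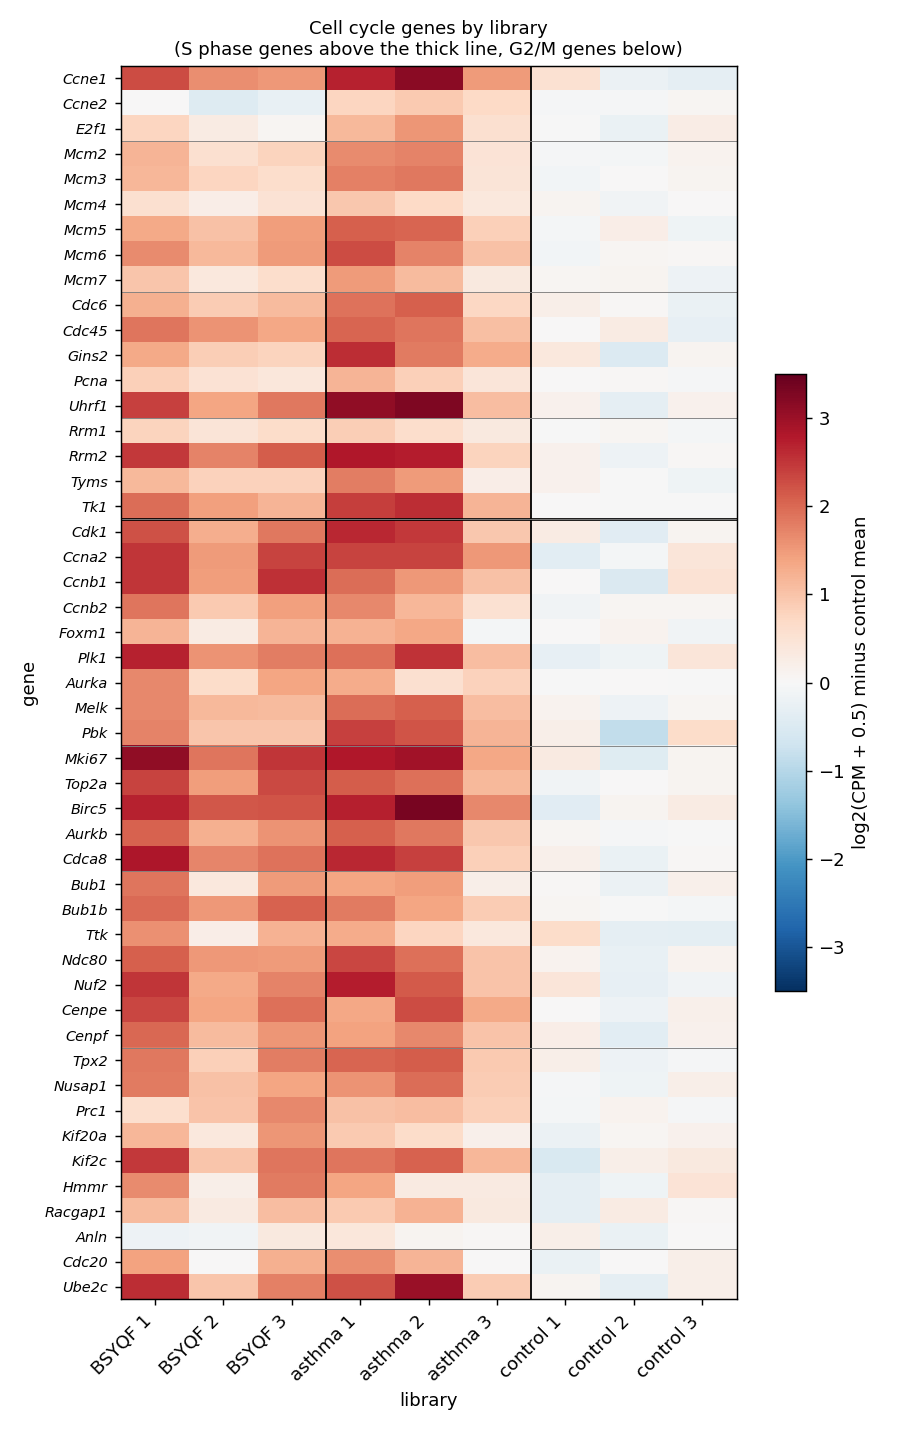
Each row is a cell cycle gene and each column a library; colour gives log2(CPM + 0.5) minus the mean of the control libraries. The S phase rows are mostly paler in the BSYQF columns than in asthma 1 and asthma 2. The G2/M rows are about as dark in BSYQF 1 and BSYQF 3 but mostly paler in BSYQF 2. Asthma 3 is paler than the other asthma columns in both blocks.

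Promoter sequences are shown for 6 genes because the 2 classes differ in the short motifs next to their start sites. The 6 were picked among genes whose promoters hold such a motif and do not stand for every gene of their class. Of the 49 genes, 40 matched an entry in a RefSeq table of promoters on GRCm38.p6, each running from 250 bases before to 50 bases after the start site, and these held 43 promoters. The motifs searched on both strands were the cell cycle homology region (CHR), the E2F motif and the CCAAT box. The CHR, read by MuvB complexes, was taken as TTTGAA or else TTCGAA. The E2F motif was taken as TTCCCGC, also as TTGGCGC, also as TTCGCGC and also as TTGCCGC. The CCAAT box, bound by NF-Y, was those letters. TTCGAA is its own reverse complement, and the reverse complement of TTGGCGC can overlap a CCAAT box. In the sequences, written 5′ to 3′ on the gene's strand, capitals mark matches to any of these motifs. The first 4 belong to G2/M genes and the last 2 to S phase genes. Their places are chr10:69352863-69353162 on the minus strand for Cdk1, chr11:99024140-99024439 on the minus strand for Top2a and chr2:164769679-164769978 on the plus strand for Ube2c. Those of the others are chr2:127831810-127832109 on the minus strand for Bub1, chr8:75109259-75109558 on the plus strand for Mcm5 and chr11:98907901-98908200 on the plus strand for Cdc6.
Cdk1: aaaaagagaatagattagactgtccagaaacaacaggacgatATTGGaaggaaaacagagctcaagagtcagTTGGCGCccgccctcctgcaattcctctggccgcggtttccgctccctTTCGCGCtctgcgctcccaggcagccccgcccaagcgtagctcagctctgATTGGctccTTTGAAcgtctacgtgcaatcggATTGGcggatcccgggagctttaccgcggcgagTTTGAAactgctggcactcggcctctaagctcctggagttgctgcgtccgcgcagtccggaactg
Top2a: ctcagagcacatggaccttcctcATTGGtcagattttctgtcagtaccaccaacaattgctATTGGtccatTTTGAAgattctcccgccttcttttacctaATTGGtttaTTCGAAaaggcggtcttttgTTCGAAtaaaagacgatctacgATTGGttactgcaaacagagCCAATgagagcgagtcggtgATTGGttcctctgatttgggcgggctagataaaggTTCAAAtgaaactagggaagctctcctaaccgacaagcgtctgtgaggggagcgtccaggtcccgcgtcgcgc
Ube2c: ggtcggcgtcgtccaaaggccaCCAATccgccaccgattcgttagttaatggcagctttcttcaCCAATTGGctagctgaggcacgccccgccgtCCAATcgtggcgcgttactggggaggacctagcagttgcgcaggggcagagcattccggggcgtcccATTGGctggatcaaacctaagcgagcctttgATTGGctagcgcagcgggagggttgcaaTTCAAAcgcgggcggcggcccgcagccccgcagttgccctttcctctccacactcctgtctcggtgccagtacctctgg
Bub1: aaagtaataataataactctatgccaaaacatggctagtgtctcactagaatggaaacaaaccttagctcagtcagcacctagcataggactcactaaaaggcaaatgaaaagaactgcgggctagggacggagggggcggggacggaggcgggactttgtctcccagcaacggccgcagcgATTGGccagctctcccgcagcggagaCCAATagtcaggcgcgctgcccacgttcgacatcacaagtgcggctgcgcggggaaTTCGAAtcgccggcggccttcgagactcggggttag
Mcm5: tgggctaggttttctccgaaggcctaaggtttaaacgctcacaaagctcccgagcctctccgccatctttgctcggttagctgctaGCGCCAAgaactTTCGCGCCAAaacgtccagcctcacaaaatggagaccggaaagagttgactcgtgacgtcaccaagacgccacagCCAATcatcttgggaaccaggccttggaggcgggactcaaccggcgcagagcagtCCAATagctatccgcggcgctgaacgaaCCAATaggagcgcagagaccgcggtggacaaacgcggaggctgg
Cdc6: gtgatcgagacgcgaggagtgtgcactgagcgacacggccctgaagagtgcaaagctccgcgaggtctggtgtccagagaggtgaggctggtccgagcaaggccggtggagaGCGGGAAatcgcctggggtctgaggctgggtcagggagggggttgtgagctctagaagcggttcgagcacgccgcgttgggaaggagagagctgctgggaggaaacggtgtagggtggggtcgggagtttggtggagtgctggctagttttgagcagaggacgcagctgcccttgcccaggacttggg

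The Cdk1 promoter held a CHR match starting 15 bases before the start site and another 71 bases before it, with E2F matches farther upstream. Top2a had 4 CHR matches and 6 CCAAT boxes, and Ube2c had 1 CHR match and 6 CCAAT boxes. In Bub1 the single CHR match began at base 15 of the transcript. Mcm5 had 3 E2F matches, of which 2 overlap, and no CHR match, and Cdc6 had 1 E2F match.

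Across the 26 promoters of G2/M genes, 20 (76.9%) held a CHR match, against 3 of 17 (17.6%) for S phase genes, 14.2% of the 14568 promoters of tested genes and 19.2% of all 32851 promoters. E2F matches ran the other way, with 4 of 26 (15.4%) for G2/M genes and 10 of 17 (58.8%) for S phase genes, beside 15.3% for tested genes and 9.57% for all. CCAAT boxes were frequent in both classes, at 73.1% for G2/M and 70.6% for S phase genes, against 36.9% for tested genes and 37.4% for all. A match is a run of letters and not a measured binding site. Sorted by motif instead of phase, the 18 genes with a CHR match and no E2F match had a median log2 fold change of BSYQF over asthma of 0.15, with 6 negative values. Of these 18, 16 were G2/M genes and 2 S phase genes. The 8 genes with an E2F match and no CHR match had a median of -0.40, with 7 negative values. Of these 8, 7 were S phase genes and 1 a G2/M gene, so both motif classes largely repeat the phase classes. The 4 genes with both, Cdk1, Hmmr, Mcm7 and Mki67, had a median of -0.15, with 2 negative values. The 10 genes with neither, 5 of each phase class, had a median of -0.37, with 9 negative values.

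**Figure D2:**
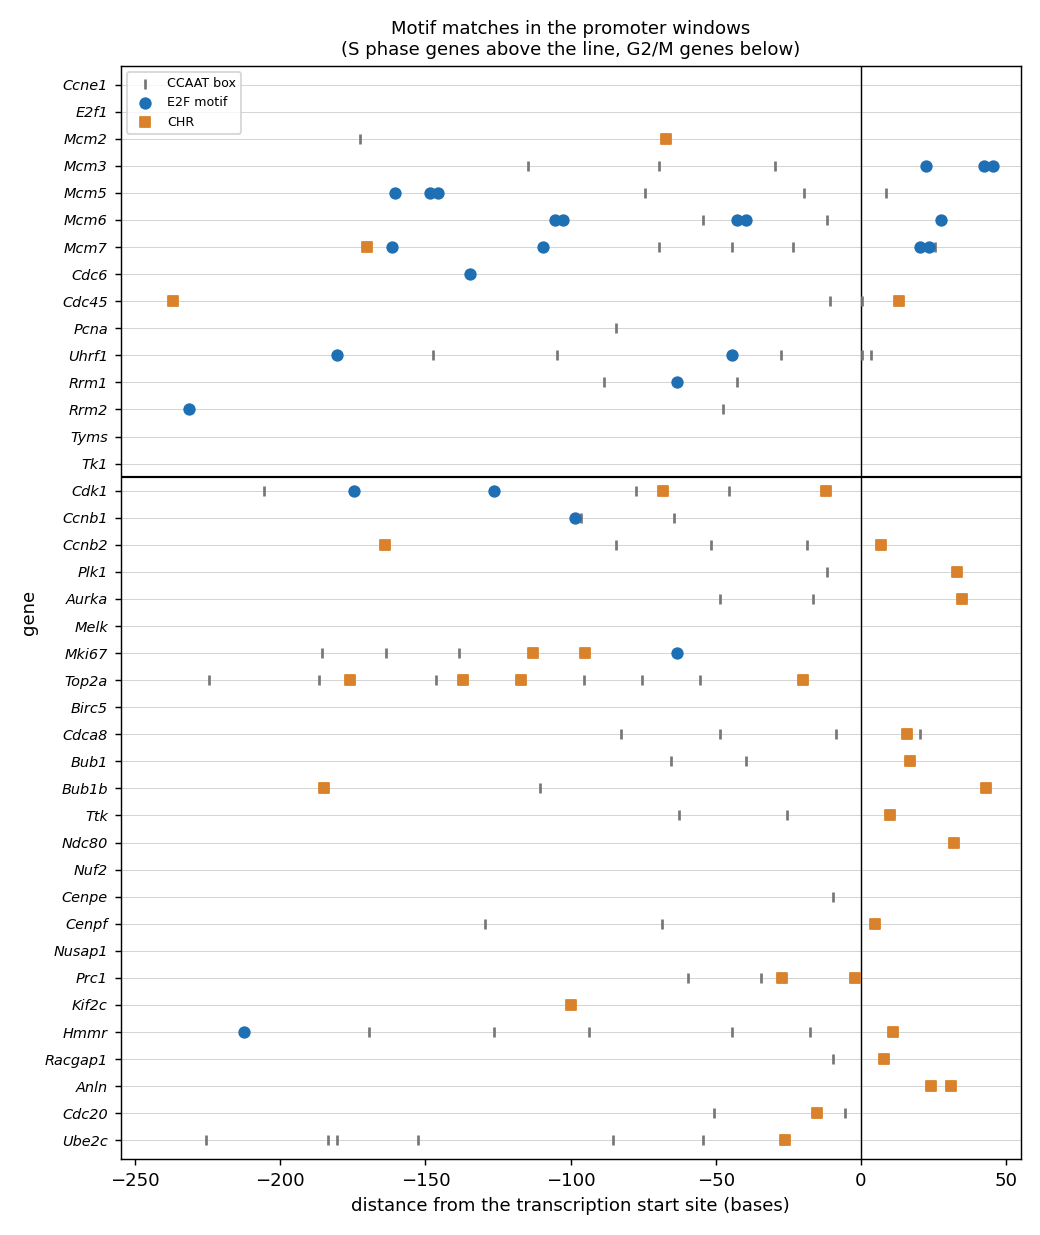
Each row is a gene with a RefSeq promoter and the horizontal axis is the distance of a match from the transcription start site in bases; orange squares are CHR, blue circles E2F and grey ticks CCAAT boxes. Mcm7, Prc1 and Uhrf1 have more than 1 promoter, whose matches share a row; orange squares lie mostly below the dividing line, in G2/M genes.

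The regulators of S phase entry were E-type cyclins and E2F1. Ccne1, cyclin E1, which partners Cdk2 at the start of S phase, stood at 7.63, 4.65 and 4.32 CPM in BSYQF lungs, 10.4, 14.3 and 4.21 CPM in asthma lungs, and 1.89, 0.936 and 0.851 CPM in control lungs. Every asthma library lay above every control library, and BSYQF libraries lay between asthma replicate 3 and the other asthma libraries. Its log2 fold change was the largest of the S phase class in asthma over control (2.96 ± 0.5, adjusted p = 0.0100) and -0.80 ± 0.45 in BSYQF over asthma (adjusted p = 0.644). E2f1, the transcription factor that activates replication genes, stood at 19.4, 13.9 and 11.9 CPM in BSYQF lungs, 25.1, 33.7 and 16.9 CPM in asthma lungs, and 11.2, 9.42 and 13.5 CPM in control lungs. Asthma libraries were all above control libraries (1.15 ± 0.28, adjusted p = 0.0298), and BSYQF libraries overlapped both other groups (-0.74 ± 0.27, adjusted p = 0.587 over asthma, 0.41 ± 0.28, adjusted p = 0.499 over control).

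Ccne2, the second E-type cyclin, on the plus strand of chromosome 4 from 11191351 to 11204779, had the smallest p-value of the 49 in BSYQF over asthma and was picked out after its values were seen. Its levels were 4.84, 3.43 and 3.96 CPM in BSYQF lungs, 8.55, 9.48 and 8.16 CPM in asthma lungs, and 4.7, 4.68 and 5.11 CPM in control lungs. All BSYQF libraries lay below all asthma libraries, which was so in no other gene of the set and in 4.76% of all tested genes, and they overlapped the control libraries. The log2 fold change of BSYQF over asthma was -1.10 ± 0.24 (unadjusted p = 0.000824, adjusted p = 0.276 in edgeR). DESeq2 gave an adjusted p of 0.00609 for the same comparison, and over the other alternatives the adjusted p ran from 0.0755 to 0.916. Ccne2 was also the one gene of the set with a negative value in BSYQF over control (-0.25 ± 0.24, adjusted p = 0.650), and its asthma over control change was 0.85 ± 0.24, adjusted p = 0.0443.

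The MCM genes encode the ring of the replicative helicase. All 6 were called higher in asthma lungs than in control lungs (log2 fold changes 0.69 to 1.80), against 8.23% of all tested genes. In BSYQF over asthma all 6 were negative (-0.61 to -0.26), against 50.7% of all tested genes. There 0 were called by edgeR or DESeq2 and 0 had an unadjusted p under 0.05. Mcm2 stood at 50.4, 32.5 and 38.3 CPM in BSYQF lungs, 70.4, 73.3 and 30.5 CPM in asthma lungs, and 21.3, 20.7 and 23.7 CPM in control lungs. The BSYQF libraries lay below asthma replicates 1 and 2 and above asthma replicate 3 and all controls. The change was 1.40 ± 0.29, adjusted p = 0.0188 in asthma over control and -0.52 ± 0.29, adjusted p = 0.634 in BSYQF over asthma. Mcm5 stood at 35.8, 28.5 and 39.3 CPM in BSYQF lungs, 60.7, 58.7 and 25 CPM in asthma lungs, and 13.2, 16.3 and 12.3 CPM in control lungs. Again all BSYQF libraries lay between asthma replicate 3 and the other asthma libraries. The change was 1.79 ± 0.30, adjusted p = 0.0100 in asthma over control and -0.48 ± 0.29, adjusted p = 0.646 in BSYQF over asthma. Mcm6 was the one MCM gene called in BSYQF over control (1.48 ± 0.28, adjusted p = 0.0271).

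Origin loading, origin firing and the fork were represented by Cdc6, Cdc45, Gins2, Pcna and Uhrf1. All were called higher in asthma lungs (0.85 to 2.85), against 8.23% of all tested genes. Cdc6 loads the helicase onto origins, and its levels were 6.96, 5.4 and 6.4 CPM in BSYQF lungs, 11.3, 13 and 4.71 CPM in asthma lungs, and 3.19, 2.75 and 2.18 CPM in control lungs. BSYQF libraries fell between asthma replicate 3 and the other asthma libraries, and all asthma libraries were above control (1.83 ± 0.37, adjusted p = 0.0170 over control; -0.62 ± 0.35, adjusted p = 0.644 for BSYQF over asthma). Pcna, the sliding clamp that holds polymerases on DNA, stood at 99.3, 78.6 and 73.3 CPM in BSYQF lungs, 127, 100.3 and 74.5 CPM in asthma lungs, and 56.1, 57 and 53.9 CPM in control lungs. Its change in asthma was among the smaller ones (0.85 ± 0.19, adjusted p = 0.0239) although no asthma library overlapped a control library, and BSYQF over asthma was -0.26 ± 0.19, adjusted p = 0.667. Gins2, a subunit of the active helicase, had -1.08 ± 0.40 in BSYQF over asthma (unadjusted p = 0.0215, adjusted p = 0.587). Uhrf1, which reads newly copied DNA to keep its methylation, had the largest asthma over control change of this group (2.85 ± 0.51, adjusted p = 0.0120). Cdc45, which joins that helicase, had the value nearest 0 of this group in BSYQF over asthma (-0.10 ± 0.32, adjusted p = 0.936) and was called in BSYQF over control (1.79 ± 0.34, adjusted p = 0.0286).

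Nucleotide supply was covered by Rrm1 and Rrm2, the subunits of ribonucleotide reductase, and by Tyms and Tk1, which make thymidine nucleotides. Rrm2 stood at 32.1, 19.1 and 25.1 CPM in BSYQF lungs, 40.5, 39 and 9.55 CPM in asthma lungs, and 5.94, 4.68 and 5.48 CPM in control lungs. Asthma replicate 3 lay below every BSYQF library and above every control library. The change was 2.46 ± 0.45, adjusted p = 0.0120 in asthma over control, -0.22 ± 0.42, adjusted p = 0.879 in BSYQF over asthma and 2.24 ± 0.45, adjusted p = 0.0338 in BSYQF over control. Tk1 stood at 18.7, 12.8 and 10.9 CPM in BSYQF lungs, 26.1, 28.9 and 10.9 CPM in asthma lungs, and 4.48, 4.45 and 4.42 CPM in control lungs. Control libraries were nearly equal, and the lowest BSYQF and the lowest asthma library were close to each other. The change was 2.30 ± 0.35, adjusted p = 0.00834 in asthma over control, -0.64 ± 0.33, adjusted p = 0.628 in BSYQF over asthma and 1.66 ± 0.35, adjusted p = 0.0388 in BSYQF over control.

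Tyms, thymidylate synthase, stood at 14, 11 and 11 CPM in BSYQF lungs, 22.1, 18 and 7.17 CPM in asthma lungs, and 6.75, 6.08 and 5.48 CPM in control lungs. Asthma replicate 3 was near the control libraries, and the changes were 1.36 ± 0.35, adjusted p = 0.0351 in asthma over control and -0.39 ± 0.34, adjusted p = 0.720 in BSYQF over asthma. Rrm1 had the smallest asthma over control change of the S phase class and stood at 65.3, 51 and 58.3 CPM in BSYQF lungs, 68.9, 57.9 and 47.9 CPM in asthma lungs, and 37.3, 39.4 and 35.8 CPM in control lungs. Its change was 0.63 ± 0.16, adjusted p = 0.0330, with no overlap between those groups. In BSYQF over asthma it was at 0.00 in size, -0.0011 (SE 0.16, adjusted p = 0.998), and its sign turned under several alternatives.

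Among the 9 genes of mitotic entry, 7 were called higher in asthma lungs than in control lungs, against 8.23% of all tested genes. Cdk1, the kinase that drives mitosis, stood at 17.4, 8.6 and 13.2 CPM in BSYQF lungs, 23.2, 20.6 and 6.86 CPM in asthma lungs, and 4.16, 2.4 and 3.56 CPM in control lungs. Asthma replicates 1 and 2 were the highest libraries, and asthma replicate 3 was below all BSYQF libraries. The change was 2.31 ± 0.45, adjusted p = 0.0137 in asthma over control and -0.37 ± 0.42, adjusted p = 0.785 in BSYQF over asthma. Ccnb1, the cyclin that activates Cdk1 at mitosis, stood at 8.66, 3.95 and 9.06 CPM in BSYQF lungs, 5.77, 4.17 and 2.82 CPM in asthma lungs, and 1.13, 0.644 and 1.81 CPM in control lungs. BSYQF replicates 1 and 3 were above every asthma library, and all libraries of both groups were above control. It had the largest positive value of the set in BSYQF over asthma (0.77 ± 0.44, adjusted p = 0.644), beside 1.82 ± 0.47, adjusted p = 0.0365 in asthma over control and 2.58 ± 0.48, adjusted p = 0.0263 in BSYQF over control.

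Plk1, a kinase of centrosome maturation and mitotic exit, stood at 20.6, 9.24 and 11 CPM in BSYQF lungs, 12.1, 18.4 and 6.46 CPM in asthma lungs, and 2.22, 2.46 and 3.94 CPM in control lungs. Both asthmatic groups lay above control and overlapped each other. The change was 2.09 ± 0.44, adjusted p = 0.0188 in asthma over control, 0.15 ± 0.41, adjusted p = 0.924 in BSYQF over asthma and 2.24 ± 0.44, adjusted p = 0.0328 in BSYQF over control. Foxm1, the forkhead factor that activates late cell cycle genes, stood at 8.96, 4.59 and 9.0 CPM in BSYQF lungs, 9.17, 10.2 and 3.5 CPM in asthma lungs, and 3.67, 4.04 and 3.3 CPM in control lungs. Asthma replicate 3 sat within the control range, and the asthma over control change did not pass (1.04 ± 0.41, adjusted p = 0.0998). Its BSYQF over asthma value was -0.01 ± 0.40, adjusted p = 0.996. Aurka, a spindle pole kinase, did not pass in asthma over control either (1.02 ± 0.33, adjusted p = 0.0634). Ccna2 and Ccnb2, cyclins of S phase to mitosis, and the kinase genes Melk and Pbk were higher in asthma lungs (log2 fold changes 1.31 to 2.28).

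Chromosome proteins and the passenger complex included Mki67, Top2a, Birc5, Aurkb and Cdca8. All 5 were called higher in asthma lungs and all 5 in BSYQF lungs than in control lungs. The shares of all tested genes called higher were 8.23% and 1.63%. Mki67, which coats mitotic chromosomes and is the common marker of dividing cells, stood at 132, 55.9 and 86.3 CPM in BSYQF lungs, 108, 116 and 38.6 CPM in asthma lungs, and 18.8, 11.1 and 15.8 CPM in control lungs. BSYQF replicate 1 was the highest library and asthma replicate 3 the lowest outside the controls. The change was 2.52 ± 0.43, adjusted p = 0.0108 in asthma over control, 0.07 ± 0.41, adjusted p = 0.967 in BSYQF over asthma and 2.59 ± 0.44, adjusted p = 0.0203 in BSYQF over control. Top2a, the topoisomerase that untangles sister chromatids, stood at 67.2, 35.6 and 64.4 CPM in BSYQF lungs, 56.1, 49.2 and 28.2 CPM in asthma lungs, and 11.7, 12.7 and 13.7 CPM in control lungs. BSYQF replicates 1 and 3 were above all asthma libraries, and every library of both groups was above control. The change was 1.81 ± 0.29, adjusted p = 0.00885 in asthma over control, 0.33 ± 0.27, adjusted p = 0.711 in BSYQF over asthma and 2.13 ± 0.29, adjusted p = 0.0101 in BSYQF over control.

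Birc5, the passenger complex subunit survivin, had the largest asthma over control change of the G2/M class and stood at 15.4, 10.6 and 10.8 CPM in BSYQF lungs, 15.6, 23.8 and 7.26 CPM in asthma lungs, and 1.35, 2.11 and 2.5 CPM in control lungs. Asthma libraries ranged widely and the BSYQF libraries lay inside their range. The change was 2.96 ± 0.42, adjusted p = 0.00706 in asthma over control, -0.34 ± 0.38, adjusted p = 0.780 in BSYQF over asthma and 2.62 ± 0.42, adjusted p = 0.0161 in BSYQF over control. The plot of CPM by library shows 4 genes of each class side by side.

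**Figure D3:**
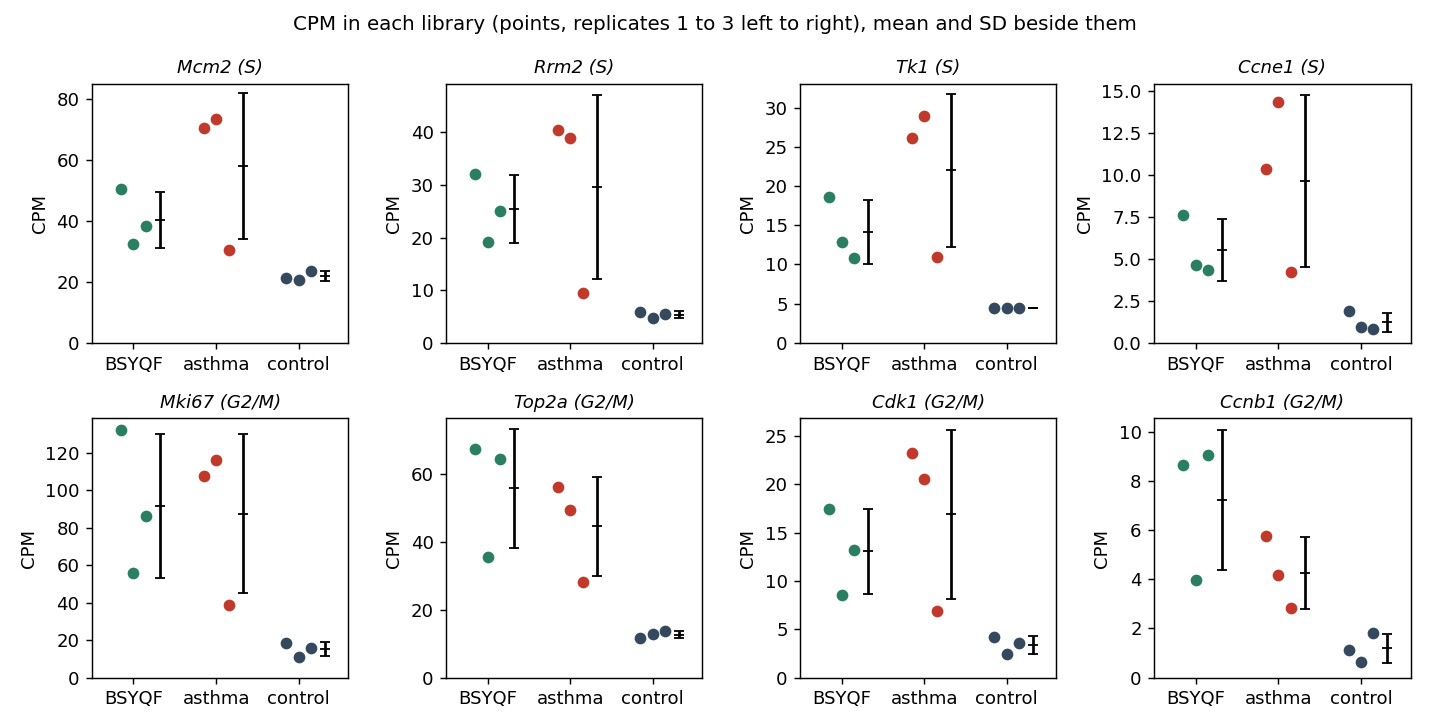
CPM is plotted on linear axes for 4 S phase genes (upper row) and 4 G2/M genes (lower row), with a point for each library and the mean ± SD of 3 libraries beside it. Asthma replicate 3 is the lowest asthma point in each panel; Ccnb1 and Top2a have 2 BSYQF points above every asthma point, and Mcm2 and Tk1 have none.

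Of 7 kinetochore and spindle checkpoint genes, 5 were called higher in asthma lungs and 4 in BSYQF lungs than in control lungs. The shares of all tested genes called higher were 8.23% and 1.63%. Bub1, a checkpoint kinase, stood at 10.1, 3.2 and 7.49 CPM in BSYQF lungs, 6.96, 7.46 and 2.82 CPM in asthma lungs, and 2.43, 1.99 and 2.71 CPM in control lungs. The spread within both asthmatic groups was wide, the lowest asthma library was just above the highest control library, and the change did not pass (1.26 ± 0.47, adjusted p = 0.0889; BSYQF over asthma 0.27 ± 0.45, adjusted p = 0.855). Its partner Bub1b had a narrower spread and was called in asthma over control (1.55 ± 0.29, adjusted p = 0.0128) and in BSYQF over control (2.03 ± 0.29, adjusted p = 0.0101). Ttk, the checkpoint kinase Mps1, did not pass in asthma over control (0.98 ± 0.54, adjusted p = 0.223). Ndc80, Nuf2, Cenpe and Cenpf, which tie kinetochores to microtubules, were higher in asthma lungs (log2 fold changes 1.52 to 2.44).

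The spindle and cytokinesis genes had the lowest median change of the role groups, 1.0 in asthma over control. Of these 8 genes 4 were called higher, against 8.23% of all tested genes. Anln, the actin-binding protein anillin of the cleavage furrow, stood at 5.75, 6.04 and 8.43 CPM in BSYQF lungs, 8.77, 7.06 and 6.86 CPM in asthma lungs, and 7.73, 5.56 and 6.7 CPM in control lungs. The groups overlapped, and this was the smallest change of the set (0.18 ± 0.25, adjusted p = 0.636; BSYQF over control 0.02 ± 0.25, adjusted p = 0.979). Kif20a, a motor of the midzone, Hmmr, a spindle protein, and Racgap1, part of the complex that positions the furrow, did not pass either (adjusted p = 0.221, adjusted p = 0.273 and adjusted p = 0.0656). Tpx2, Nusap1, Prc1 and Kif2c, which act on spindle microtubules, were higher in asthma lungs (1.11 to 2.05).

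Cdc20 and Ube2c serve the anaphase-promoting complex, which marks cyclins and other mitotic proteins for destruction. Ube2c, its ubiquitin-conjugating enzyme, stood at 25.2, 7.9 and 14.1 CPM in BSYQF lungs, 19.6, 34.5 and 7.49 CPM in asthma lungs, and 4.11, 2.98 and 4.47 CPM in control lungs. Asthma replicate 2 was the highest library, and both asthmatic groups lay above control. The change was 2.40 ± 0.54, adjusted p = 0.0243 in asthma over control, -0.38 ± 0.51, adjusted p = 0.817 in BSYQF over asthma and 2.02 ± 0.54, adjusted p = 0.0940 in BSYQF over control. Cdc20, the activator of the complex, did not pass in asthma over control (1.12 ± 0.43, adjusted p = 0.0974).

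Per length of merged exons the S phase genes held the top of the level order. In asthma lungs Pcna was highest at 41.9 CPM per kb, followed by Mcm3 at 21.3 and Mcm4 at 16.1 CPM per kb. Mki67 was the highest G2/M gene at 8.70 CPM per kb, and Cenpf, a kinetochore protein, was lowest of the 49 at 0.496 CPM per kb. In BSYQF lungs Pcna stood at 34.9 and Cenpf at 0.580 CPM per kb, and in control lungs at 23.2 and 0.173 CPM per kb. Cenpf was the lowest gene in each of the 3 groups.

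The asthma libraries differed in the same way across nearly all cell cycle genes, the BSYQF libraries did so in part, and the control libraries did not. Asthma replicate 3 was the lowest of the asthma libraries in 18 of 18 S phase genes and in 29 of 31 G2/M genes. BSYQF replicate 1 was the highest of its group in 17 of 18 S phase genes and in 24 of 31 G2/M genes. BSYQF replicate 2 was the lowest in 10 S phase and 27 G2/M genes, and BSYQF replicate 3 in 8 and 2. Control replicates 1 to 3 were the highest of their group in 7, 6 and 5 S phase genes and in 11, 4 and 16 G2/M genes. Relative to the control mean, the mean log2 CPM of the S phase genes was 1.40, 0.90 and 1.0 in BSYQF replicates 1 to 3 and 1.94, 1.86 and 0.80 in asthma replicates 1 to 3. For the G2/M genes it was 2.09, 1.12 and 1.79 in BSYQF lungs and 1.96, 1.89 and 0.92 in asthma lungs. On both scores all libraries of both groups lay above all control libraries, and the BSYQF and asthma libraries overlapped.

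The difference between the scores did not overlap between BSYQF and asthma. S minus G2/M, relative to the control mean, was -0.69, -0.22 and -0.79 in BSYQF replicates 1 to 3, -0.02, -0.02 and -0.12 in asthma replicates 1 to 3, and 0.08, 0.12 and -0.20 in control replicates 1 to 3. Every BSYQF library was below every asthma and control library, though BSYQF replicate 2 and control replicate 3 were nearly level. The group means differed by -0.51 between BSYQF and asthma, by -0.57 between BSYQF and control and by -0.06 between asthma and control. In asthma lungs both classes thus stood above control by like amounts, 1.53 and 1.59 on the log2 scale, whereas in BSYQF lungs the S phase genes stood 1.10 and the G2/M genes 1.67 above control. These scores are descriptions of genes chosen with earlier results known and carry no test.

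**Figure D4:**
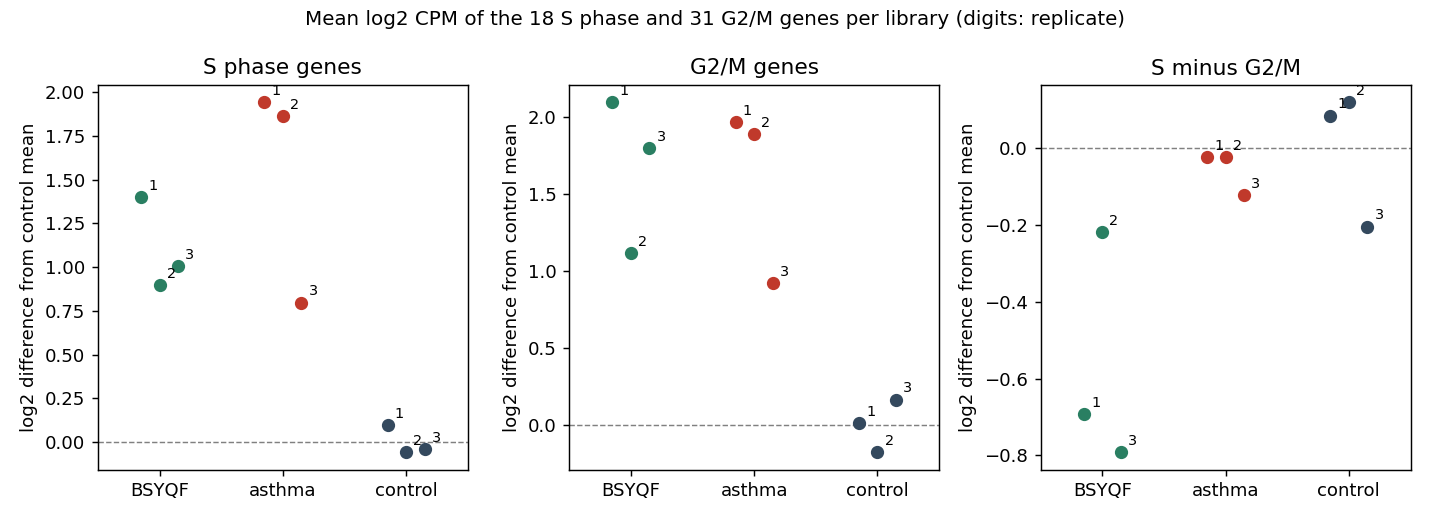
Points are libraries (digits give the replicate) and the vertical axes give the mean log2 CPM of 18 S phase genes, of 31 G2/M genes and their difference, each minus the control mean. In the right panel the BSYQF points lie at -0.69, -0.22 and -0.79, and the asthma points between -0.12 and -0.02.

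The medians in BSYQF over asthma moved with single libraries, in both directions. Without asthma replicate 3, the S phase median was -0.81 and the G2/M median -0.20. In that fit 20 of the 49 genes had an unadjusted p under 0.05, as did 20.3% of all tested genes, against 3 of the 49 and 7.9% of all tested genes with every library in. Without asthma replicate 1 or asthma replicate 2, the S phase median was -0.31 and -0.33. Without asthma replicate 3 edgeR called 1 gene of the set, Mcm3, a helicase subunit named here after its values were seen (-0.61 ± 0.30, adjusted p = 0.623 with all libraries; adjusted p = 0.0396 without asthma replicate 3). Across all 17 settings the S phase median ran from -0.81 to -0.31, with 14 to 18 of the 18 genes negative. The G2/M median ran from -0.20 to 0.31, with 7 to 23 of the 31 genes negative. The split of 13 negative and 18 positive G2/M values became 23 and 8 without BSYQF replicate 1 and 20 and 11 without asthma replicate 3. It became 7 and 24 without BSYQF replicate 2 and 8 and 23 without asthma replicate 1 or asthma replicate 2. The S phase median was below the G2/M median in each of the 17 settings.

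**Figure D5:**
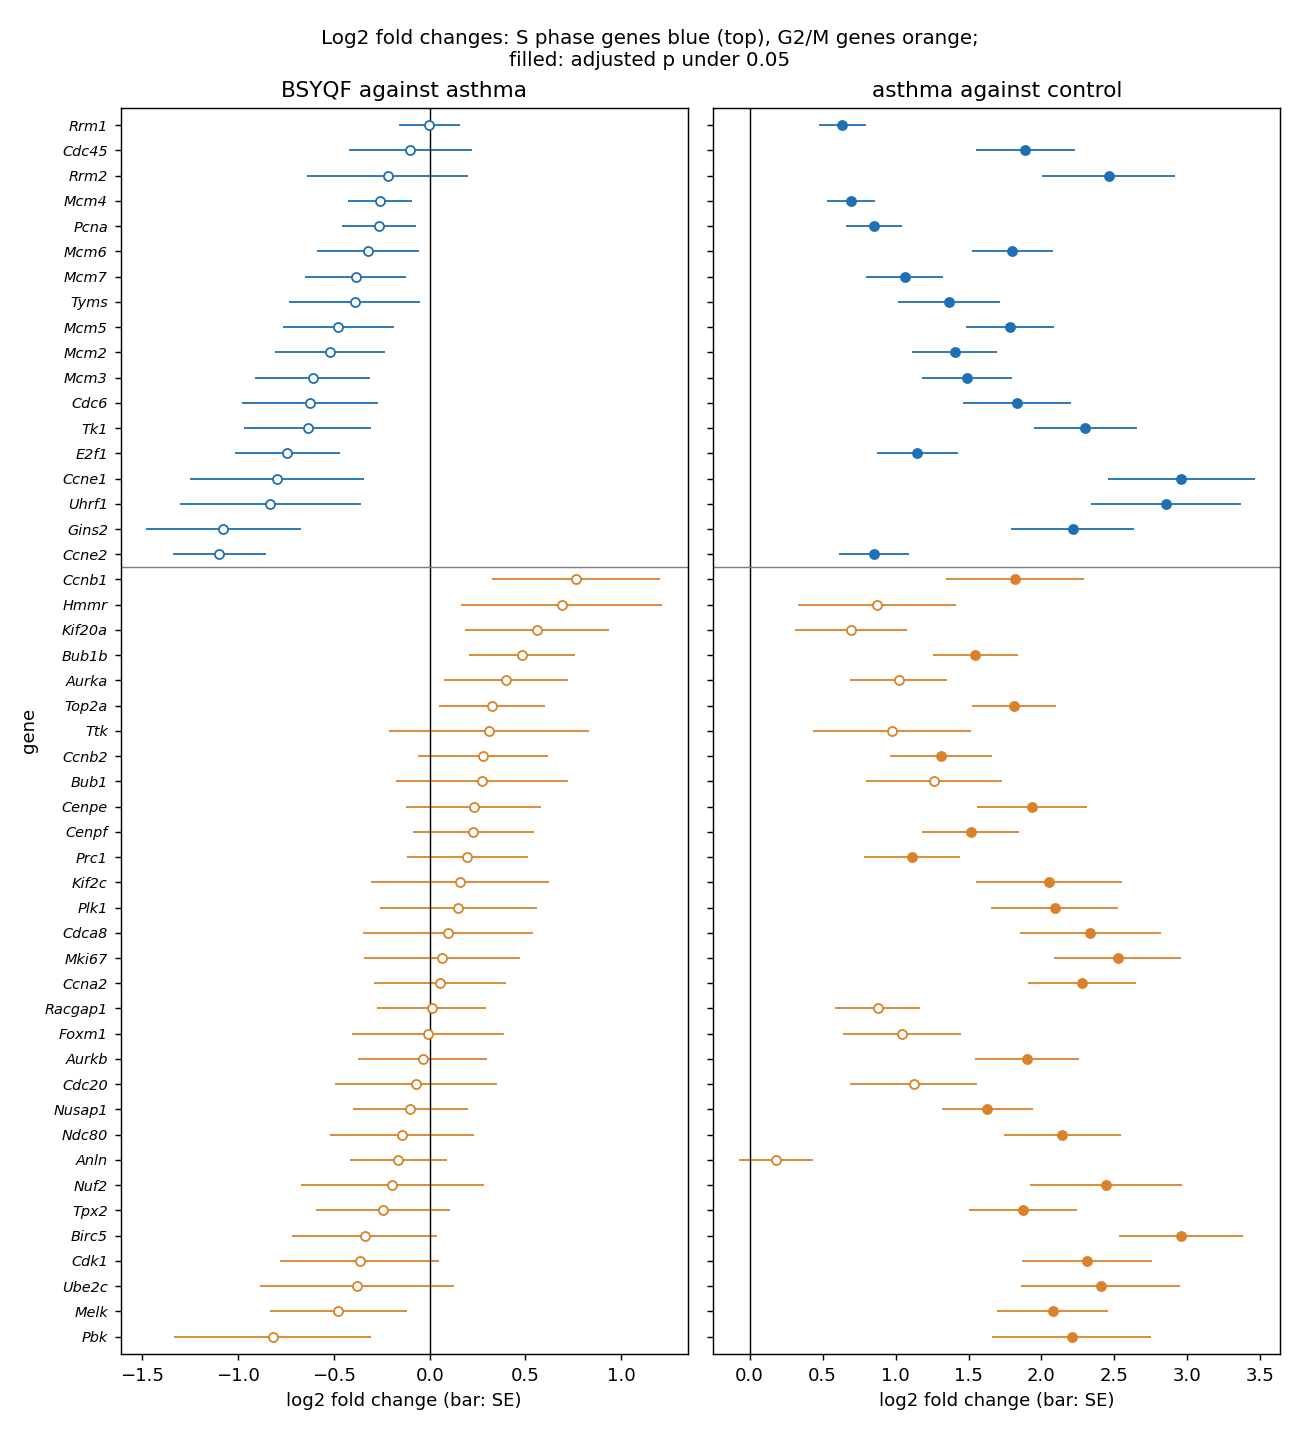
Points are log2 fold changes and bars their SE for BSYQF over asthma (left) and asthma over control (right), with S phase genes in blue above G2/M genes in orange and filled points for an adjusted p under 0.05. On the left all 18 blue points are below 0 and none is filled; on the right all 49 points are above 0 and 40 are filled.

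In BSYQF over control the 17 genes called higher were 4 of 18 S phase genes, Mcm6, Cdc45, Rrm2 and Tk1, and 13 of 31 G2/M genes. Both comparisons against control use the same control libraries. The median log2 fold change was 1.06 for S phase genes and 1.74 for G2/M genes, and 48 of the 49 values were positive, against 49.7% of all tested genes. An unadjusted p under 0.05 was reached by 46 of the 49, against 10.1% of all tested genes higher at that limit. In 43 genes all BSYQF libraries lay above all control libraries, which was so in 13.0% of all tested genes. DESeq2 called 33, and a fit of these 2 groups alone called 27. Over all tested genes these called 806 and 389, against 246 in the main fit. Leaving out asthma replicate 3, BSYQF replicate 1, control replicate 1, control replicate 2 or control replicate 3 gave 33, 4, 2, 0 and 0 called genes, and the last pair of fits had 41 genes of the set each at an unadjusted p under 0.05, against 10.4% and 12.7% of all tested genes in those fits.

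Other genes of the same pathway, from lists by role, were counted in the same way. For comparison, edgeR called 8.23% of all tested genes higher and 4.45% lower in asthma over control, and 1.63% higher in BSYQF over control. In BSYQF over asthma 50.7% of all tested genes had a negative value and 7.9% an unadjusted p under 0.05. Of 26 further replication genes, 16 were higher in asthma lungs than in control lungs and 0 lower, with a median log2 fold change of 1.15. Mcm10, an initiation factor, changed by 3.05 ± 0.48, adjusted p = 0.00885, Dtl, a substrate receptor of a ubiquitin ligase active in S phase, by 2.28 ± 0.39, adjusted p = 0.0100, and Clspn, a mediator of the replication checkpoint, by 2.72 ± 0.48, adjusted p = 0.0108. In BSYQF over asthma 23 of these 26 were negative, with a median of -0.30, and 0 were called in edgeR or DESeq2, with 2 at an unadjusted p under 0.05 in edgeR. Of 27 further mitosis genes tested, 12 were higher in asthma lungs and 0 lower, with a median of 1.12. Incenp, the scaffold of the passenger complex, changed by 1.33 ± 0.26, adjusted p = 0.0138, Spc24, a kinetochore protein, by 1.82 ± 0.36, adjusted p = 0.0161, and Ncapg, a condensin subunit, by 2.27 ± 0.47, adjusted p = 0.0189. In BSYQF over asthma 13 were negative and 14 positive, with a median of 0.01, and again 0 were called by either tool, with 2 at an unadjusted p under 0.05. In BSYQF over control edgeR called 1 of the replication genes and 5 of the mitosis genes higher, and DESeq2 called 9 and 13. A further mitosis gene, the motor Kif11, was listed at 0 in every library and was not tested.

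Genes that restrain or license the cycle were counted beside the shares over all tested genes. In asthma over control 8.23% of all tested genes were called higher and 4.45% lower, and 34.1% had an unadjusted p under 0.05 in edgeR. In BSYQF over asthma 50.7% had a negative value and 7.9% an unadjusted p under 0.05. Of 7 CDK inhibitors, 0 were called in edgeR in asthma over control, with 1 at an unadjusted p under 0.05, Cdkn1b (p27), at -0.49 ± 0.16, adjusted p = 0.0665. DESeq2 called 1 of the 7 lower. Of 7 D-type cyclins and G1 kinases, 1 was higher, Cdk2, the partner of cyclin E (0.72 ± 0.19, adjusted p = 0.0350), and all 7 were negative in BSYQF over asthma, with a median of -0.26, 0 called by edgeR or DESeq2 and 1 at an unadjusted p under 0.05. Of 17 pocket proteins, E2F and MuvB factors, 3 were higher in asthma lungs. These were E2f7 and E2f8, repressor E2Fs that are themselves S phase genes (1.5 ± 0.35, adjusted p = 0.0256 and 1.84 ± 0.44, adjusted p = 0.0286), and Mybl2, which encodes B-Myb (1.77 ± 0.52, adjusted p = 0.0480). A negative value was seen in 7 of the 17, and in 3 of these, Rbl2, Tfdp2 and E2f6, named after their values were seen, every asthma library lay below every control library (log2 fold changes -0.60, -0.71 and -0.55). That was so in 2713 of all 14739 tested genes, about the same share. edgeR called 0 of the 17 lower, and DESeq2 called 4 higher and 2 lower. An unadjusted p under 0.05 in either direction was reached in edgeR by 9 of the 17, against 34.1% of all tested genes.

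Among 8 quiescence-associated genes 0 were higher and 1 was lower in asthma lungs, against 8.23% and 4.45% of all tested genes. This was Gas1, a growth arrest gene, at 35.4, 45.5 and 40.9 CPM in BSYQF lungs, 31.2, 14.5 and 28.7 CPM in asthma lungs, and 78.6, 39.8 and 42 CPM in control lungs. Asthma libraries all lay below control libraries, as in 2713 of all 14739 tested genes. The BSYQF libraries were above all asthma libraries, as in 735 of all tested genes. The change was -1.11 ± 0.31, adjusted p = 0.0444 in asthma over control and 0.71 ± 0.31, adjusted p = 0.622 in BSYQF over asthma. All 8 of the quiescence-associated genes were positive in BSYQF over asthma, with a median of 0.32, 0 called by edgeR or DESeq2 and 1 at an unadjusted p under 0.05. Over all 14739 tested genes 7263 were positive there and 7.9% had an unadjusted p under 0.05.

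Some markers of cell types that divide in or infiltrate the lung differed between the groups, and their part in the cell cycle results was not tested. Over all tested genes edgeR called 8.23% higher in asthma over control and 1.63% higher in BSYQF over control. All 5 interstitial macrophage markers were higher in asthma lungs than in control lungs and 4 of 5 in BSYQF lungs, and their summed level was 390 to 699 CPM in BSYQF lungs, 626 to 723 CPM in asthma lungs and 134 to 232 CPM in control lungs. Plasma cell markers summed to 4223 to 4559 CPM in BSYQF lungs, 3355 to 4625 CPM in asthma lungs and 595 to 767 CPM in control lungs, with 2 of 5 called higher in BSYQF and 3 of 5 in asthma over control. The median log2 fold change of these markers was 0.91 in asthma over control (range 0.30 to 4.64). In BSYQF over control it was 0.71 (range 0.15 to 4.94). Germinal centre B cell markers summed to 64.1 to 74.0 CPM in BSYQF lungs, 48.7 to 59.9 CPM in asthma lungs and 43.1 to 52.6 CPM in control lungs. Of these markers 3 of 5 were higher in BSYQF over control and 2 of 5 in asthma over control. In BSYQF over asthma all 5 were positive and 4 had every BSYQF library above every asthma library, which was so in 735 of all 14739 tested genes. edgeR called 0 of the 5 there, with 3 at an unadjusted p under 0.05, against 7.9% of all tested genes, and DESeq2 called 1.

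B cell markers summed to 331 to 556 CPM in BSYQF lungs, 245 to 447 CPM in asthma lungs and 140 to 370 CPM in control lungs, and T cell markers to 100.3 to 138 CPM, 72.6 to 98.4 CPM and 53.9 to 95.2 CPM in the same groups, with 0 of 5 called by edgeR in either list in any comparison. In BSYQF over control DESeq2 called 2 of the B cell and 1 of the T cell markers higher, and 4 of each list had an unadjusted p under 0.05 in edgeR, against 15.8% of all tested genes. In BSYQF over asthma all 5 markers of each list were positive, 3 T cell markers and 1 B cell marker had an unadjusted p under 0.05, against 7.9% of all tested genes, and DESeq2 called 0. In 3 T cell markers and 0 B cell markers every BSYQF library lay above every asthma library, against 735 of all 14739 tested genes. The alveolar macrophage sum was 391 to 4530 CPM in BSYQF lungs, 639 to 2348 CPM in asthma lungs and 284 to 294 CPM in control lungs, and the neutrophil sum was 140 to 1639 CPM in BSYQF lungs, 314 to 550 CPM in asthma lungs and 182 to 715 CPM in control lungs. In BSYQF over control edgeR called 0 of 5 in either list, DESeq2 called 1 of each, and 1 of each had an unadjusted p under 0.05. The 5 alveolar macrophage markers had a median log2 fold change of 0.09 in asthma over control (range -0.03 to 4.10). In BSYQF over control their median was 0.08 (range -0.27 to 4.44). In each of these comparisons only 1 of the 5 lay above control in every library. The precursor lists were low. Thymocyte markers summed to 4.42 to 12.0 CPM in BSYQF lungs, 2.77 to 6.79 CPM in asthma lungs and 4.48 to 9.30 CPM in control lungs, with Rag1 and Rag2 at 0 in every BSYQF and asthma library and Ptcra at 0 in all 9 libraries. Erythroid progenitor markers summed to 9.12 to 60.2 CPM in BSYQF lungs, 9.68 to 28.8 CPM in asthma lungs and 28.0 to 56.9 CPM in control lungs. Endothelial markers, 1 of 5 lower in asthma over control, summed to 2708 to 2857 CPM in BSYQF lungs, 1876 to 3224 CPM in asthma lungs and 2928 to 4284 CPM in control lungs. The 6 lung epithelial markers, Sftpc among them, had 3 positive and 3 negative log2 fold changes in asthma over control (-0.44 to 0.86), with 1 called higher. In BSYQF over asthma they again split into 3 and 3, with 0 called.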

How the data were processed

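Per the labels' protocols, Trizol was used to isolate lung RNA, of which 3 µg went into each NEBNext Ultra library. Tools named in the submitters' processing notes are STAR, HTSeq, DESeq2, cutadapt and FastQC, on build mm10. The sources used here do not give read layout, annotation, strand setting or the handling of shared reads, so overlapping genes and close copies are uncertain. The table of gene counts that the authors deposited holds whole numbers without normalization, and all tests used it. Another 36 columns of values per library, in the authors' comparison tables, were not used.

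Counts were filtered with filterByExpr, then scaled with TMM, whose factors were 0.914 to 1.07. The quasi-likelihood fit of edgeR 4.0.16 (R 4.3.3; glmQLFit with robust estimation and the default dispersion, then glmQLFTest) was 1 model of 3 groups, with no replicate block. Adjusted p-values are Benjamini-Hochberg over the 14739 genes tested, with calls under 0.05. The SE is the size of the log2 fold change divided by the square root of F, and the biological coefficient of variation was 0.244. CPM were computed on the TMM-scaled library sizes, and log2 CPM in the phase scores used a prior count of 2. The test was tried on simulated counts with less spread between libraries than these data have. That trial does not show how the test behaves at the spread of the data. Alternatives were RLE size factors, other filters, DESeq2 1.42.0, fits of 2 groups, the replicate block and leaving out each library, and, chosen after seeing the data, edgeR's newer dispersion method. No libraries of a group agreed within sampling noise (chi-square per gene 24.3 to 147).

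The genes, their phase and role classes, the other lists and the motifs were chosen with earlier results of these data known. Full values were given for 18 preset genes and for the largest and smallest change of each class in asthma over control. The same held for any gene called in BSYQF over asthma, and Ccne2 was added after its values were seen. The others appear by range and count or as called or not called. Some of them, such as Gins2, Uhrf1, Cdc45, Mcm6 and Bub1b, also have a fold change and adjusted p, and several were picked by their values. Of the other lists up to 3 genes with the smallest p-values were named. Coordinates and exon lengths are from GENCODE vM21, and promoters from RefSeq.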

Additional observations from a re-analysis of the deposited data

How the results depend on the processing

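All 49 genes kept a positive asthma over control change in every setting. The number called (40 as reported) was 39 with RLE size factors, 38 with no filter, 44 with DESeq2 and 40 with the newer dispersion method, and leaving out 1 library gave 7 to 44. Only Mcm6, Tk1, Ccna2, Top2a and Birc5 were called in all 9 fits that left out a library. BSYQF over asthma (0 as reported) gave 1 with DESeq2 and 0 to 1 with a library left out. BSYQF over control (17 as reported) gave 33 with DESeq2, 27 with these 2 groups alone and 0 to 33 with a library left out. Over all tested genes, DESeq2 called 3263, 122 and 806 genes in asthma over control, BSYQF over asthma and BSYQF over control, beside 1869, 1 and 246 in edgeR. Leaving out 1 library gave 171 to 4262, 0 to 114 and 9 to 563, and the fit of 2 groups called 389 in BSYQF over control. Same-numbered replicates did not pair (correlations of their deviations -0.26 to 0.34); with the replicate number as a block, 37 genes of the set were called in asthma over control, against 40 without it, and over all genes 1469 and, in BSYQF over asthma, 15.

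With a library left out, the S minus G2/M difference ran from -0.69 to -0.40 between BSYQF and asthma (-0.51 as reported), from -0.74 to -0.46 between BSYQF and control (-0.57) and from -0.16 to 0.0035 between asthma and control (-0.056). No called change of a named gene turned its sign. Uncalled values in BSYQF over asthma that did were small. Without asthma replicate 3 and without BSYQF replicate 1, Mki67 was at -0.29 and -0.29, Plk1 at -0.16 and -0.27 and Bub1 at -0.06 and -0.082. Without asthma replicate 2, Birc5 was at 0.11 and Ube2c at 0.22. Rrm2 was at 0.081 and 0.032 without asthma replicates 1 and 2. Foxm1 turned to 0.00029 with RLE size factors, 0.015 with 2 groups, 0.058 with the block and 0.0065 with the newer dispersion method. Rrm1 turned to 0.0074 with RLE size factors, 0.0077 with DESeq2, 0.021 with 2 groups and 0.0069 with the block. With a library left out, the BSYQF over asthma values ran from -0.29 to 0.33 for Mki67, -0.68 to 0.11 for Birc5, -0.27 to 0.56 for Plk1, -0.082 to 0.61 for Bub1, -0.36 to 0.26 for Foxm1, -0.88 to 0.22 for Ube2c, -0.64 to 0.081 for Rrm2 and -0.12 to 0.15 for Rrm1. In BSYQF over control, Anln ran from -0.18 (without BSYQF 3) to 0.14. The causes were not tested. With 3 libraries a group and 1 asthma library well below the others, BSYQF over asthma has little precision, and counts as low as 8 in control libraries limit the lowest genes.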
